A study of Mus musculus with 12 samples.

Results

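Death receptor signaling was described through 10 genes, Tnfsf10, Tnfrsf1a, Tradd, Traf2, Ripk1, Birc2, Fadd, Casp8, Cflar and Bid. They were taken by symbol from the 22630 genes of each expression file, and each had 1 row in all 12 tumors. The set was chosen by pathway membership and with results of these data known, among them the lower RPKM of Fadd in plus-dox than in no-dox tumors. For that reason the Fadd values of that comparison are given as a description without a test, and Fadd is left out of the counts of members below an unadjusted p or apart without overlap. The paper also reports reduced apoptotic pathways in plus-dox against no-dox tumors, so the direction of the other members is not independent of earlier results. All 10 genes passed the filter of at least 10 counts summed over the tumors.

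Death receptors are members of the TNF receptor family that carry a death domain in the cytoplasm. Bound receptors recruit adaptors. TNFR1 first assembles a membrane complex of TRADD, RIPK1, TRAF2 and the cIAP ubiquitin ligases, which drives NF-kappaB signaling, and FADD can then join TRADD and RIPK1 in a second, cytosolic complex. The receptors for TRAIL and Fas ligand bind FADD directly. FADD brings in caspase-8, which activates executioner caspases and cleaves BID, and cleaved BID carries the signal to mitochondria. c-FLIP, the product of Cflar, resembles caspase-8 without an active site and limits its activation in the same complexes.

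The question addressed was how the transcripts of this pathway differ among pancreatic tumors in mice that never received dox, always received it or had it withdrawn, dox being the switch for mutant p53R270H. RNA was sequenced from whole, unsorted subcutaneous tumors, with 4 tumors in each of the groups no-dox, plus-dox and off-dox. All were grown from KCip53-1, a line from 1 pancreatic tumor of a mouse with the alleles Ptf1a-Cre, TREp53R270H and R26rtTa/rtTa, sorted for dsRed, the reporter expressed together with the transgene. Every group thus carried the same alleles, and Ptf1a-Cre acts in the pancreatic epithelium. By the study's PCR, the line had lost the wild-type p53 gene and held the transgene alone. The hosts were immunocompromised (NSG) mice 8 to 10 weeks of age, a strain without mature T, B and NK cells, and 500000 cells were injected for each tumor. No-dox mice were given 0 days of dox. Dox was given in drinking water at 0.2 g/l with 5% sucrose, to plus-dox mice for 36 days. For off-dox mice it was stopped after 33 days, and 3 days passed before collection. Each mouse carried 2 tumors, and the sources do not say which tumors shared a mouse, so p-values are too small wherever tumors of a group did.

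Counted reads ran from 19845923 to 33137609 a tumor. The share of mapped reads that fell on genes was 88.4% to 89.4% without dox, 82.2% to 87.1% with dox and 81.1% to 85.8% after its removal, so it separated the no-dox tumors from the others, and its part in the results was not tested. All 10 epithelial markers were detected, and their summed level was 2327 to 3137 RPKM in the no-dox, 1366 to 2059 in the plus-dox and 1079 to 2689 in the off-dox tumors. RPKM, the read count scaled to the exonic length of a gene and to all mapped reads of a tumor, was the level used throughout. Krt8, a keratin of simple epithelia, is among the 10 epithelial markers and was listed with Fadd in a gene set of the study. It averaged 925.7 ± 66.1 RPKM in the no-dox, 550.4 ± 39.7 in the plus-dox and 544.4 ± 202.0 in the off-dox tumors (SD, n = 4 a group). Trp53 overlapped among the groups, with 47.7 ± 7.3, 48.5 ± 6.4 and 44.0 ± 1.7 RPKM (SD, n = 4 each), and therefore did not check which tumors expressed the transgene. Of the other marker lists, the summed T and NK genes (9 of 10 found) were higher in off-dox (6.61 to 17.2 RPKM) than in no-dox tumors (3.74 to 6.50) and the 10 fibroblast genes lower in off-dox (1402 to 1623 RPKM) than in plus-dox tumors (1714 to 3229), without overlap. Macrophage, neutrophil, endothelial, skeletal muscle, adipocyte and keratinocyte sums overlapped between every pair of groups, and no marker found was at 0 in all tumors of a group. Plus-dox tumor 2 and off-dox tumor 4 had the highest neutrophil, endothelial, and T and NK marker sums of their groups, and results that depend on them are also given without them.

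All 10 genes were expressed, over a 28.1-fold range of median levels. The death domain receptor Tnfrsf1a was the most abundant transcript, with a median of 65.9 RPKM over the 12 tumors, and exceeded every other member in every tumor. Casp8 followed at 24.7 RPKM. Tradd (16.9 RPKM), Cflar (15.9), Bid (14.3), Ripk1 (14.3), Birc2 (12.7) and Traf2 (11.9) formed a group in which each gene overlapped the next in the order. Fadd was lower, at 4.94 RPKM, without overlap with Traf2. The ligand Tnfsf10 was lowest, at 2.34 RPKM, and did not overlap Fadd. Ripk1 varied least over the tumors (coefficient of variation 4.99%) and Tnfsf10 most (31.0%).

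**Figure D1:**
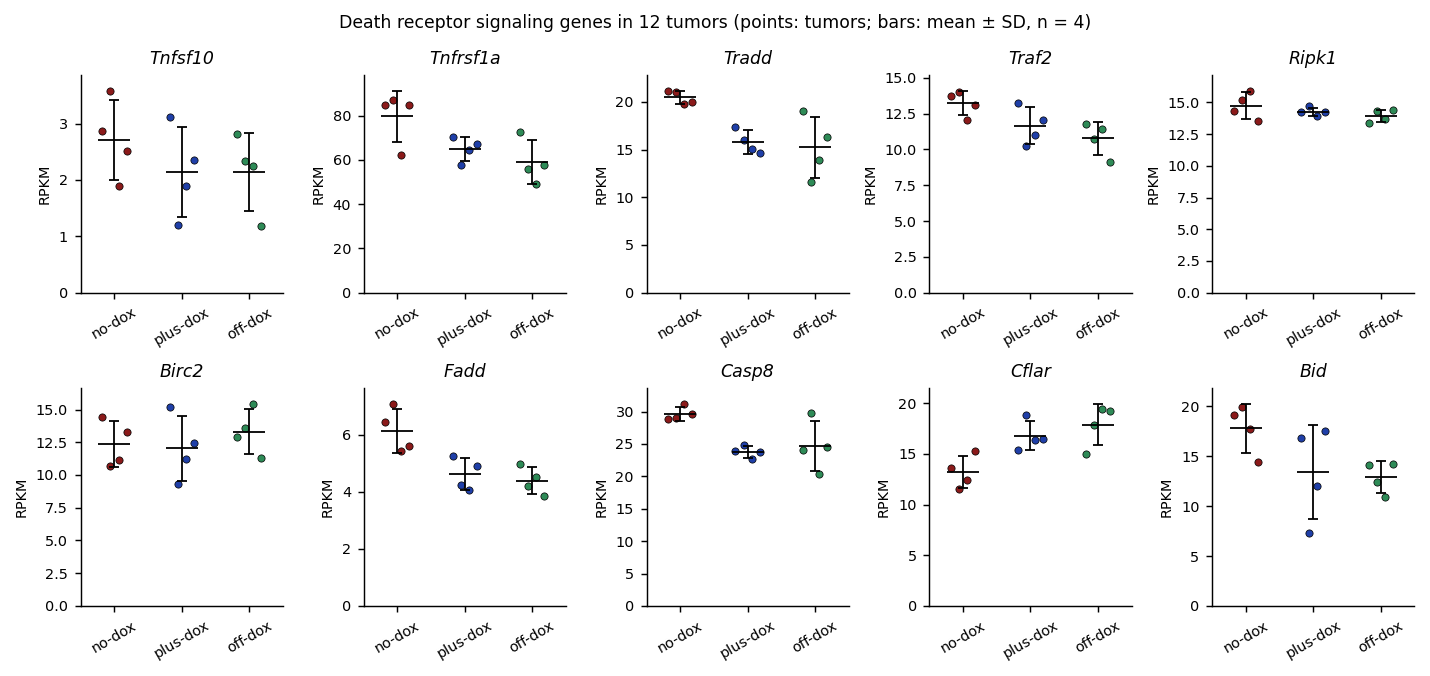
RPKM of each of the 10 genes (vertical axes, each starting at 0) by group, with 4 tumors a group. Points are tumors and bars are the mean ± SD. Tradd, Fadd and Casp8 lie lower in all plus-dox than in all no-dox tumors, Cflar lies higher, and Ripk1 and Birc2 overlap among the groups.

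Of the 9 members other than Fadd, most had a lower mean level in the 8 tumors that had been given dox, and Cflar a higher one. None of the 10 genes met the limits for a call. In plus-dox against no-dox tumors, 8 of the 9 genes other than Fadd had a negative log2 fold change and 1 a positive one, with a median of −0.28 against 0.01 over all 17561 genes tested, of which 48.6% were lower. In off-dox against no-dox tumors, 7 of the 9 were lower and 2 higher, with a median of −0.27 against 0.01 over all genes, of which 49.3% were lower. These comparisons share the no-dox tumors and are not independent of each other. A gene was called where edgeR gave an adjusted p under 0.1 and the fold change exceeded 1.5, with more than 0.25 RPKM on average and more than 250 bp of exon.

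With this rule 0 of the 10 genes were called in plus-dox against no-dox tumors, where 0% of all genes were (edgeR). The smallest edgeR adjusted p of any gene in that comparison was 0.32. In off-dox against no-dox tumors 0 of 10 were called and 1.34% of all genes were. In off-dox against plus-dox tumors 0 of 10 were called against 0% of all genes. At an unadjusted edgeR p under 0.05, 3 of the 9 members other than Fadd differed between plus-dox and no-dox tumors (13.7% of all genes), 2 of them lower (5.67% of all genes) and 1 higher (8% of all genes). Between off-dox and no-dox tumors 4 of the 9 differed (20.4% of all genes), 3 of them lower (9.48%) and 1 higher (10.9%). Between off-dox and plus-dox tumors 0 differed (3.06% of all genes, 1.81% lower and 1.25% higher). DESeq2 with moderated fold changes also called 0 of the 10 in each comparison, against 91, 400 and 2 of all genes.

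Among the 9 genes other than Fadd, the groups did not overlap for 2 that were lower in plus-dox than no-dox tumors (Tradd and Casp8), a pattern shown by 3.46% of all genes, and for 1 that was higher (Cflar), shown by 4.3%. In off-dox against no-dox tumors 3 of the 9 were lower without overlap (Tradd, Traf2 and Bid), against 6.4% of all genes, and 0 were higher, against 4.99%. On TMM-scaled log2 CPM, which is relative to reads on genes, Cflar in plus-dox and Bid in off-dox tumors overlapped the no-dox tumors. The members apart were then 2 lower (4.49% of all genes) and 0 higher (4.37%) in plus-dox, and 2 lower (5.69%) and 0 higher (5.85%) in off-dox against no-dox tumors. In off-dox against plus-dox tumors 0 genes were separate in either direction, against 0.934% of all genes lower and 0.552% higher in RPKM, and 0.752% and 0.649% in log2 CPM.

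**Figure D2:**
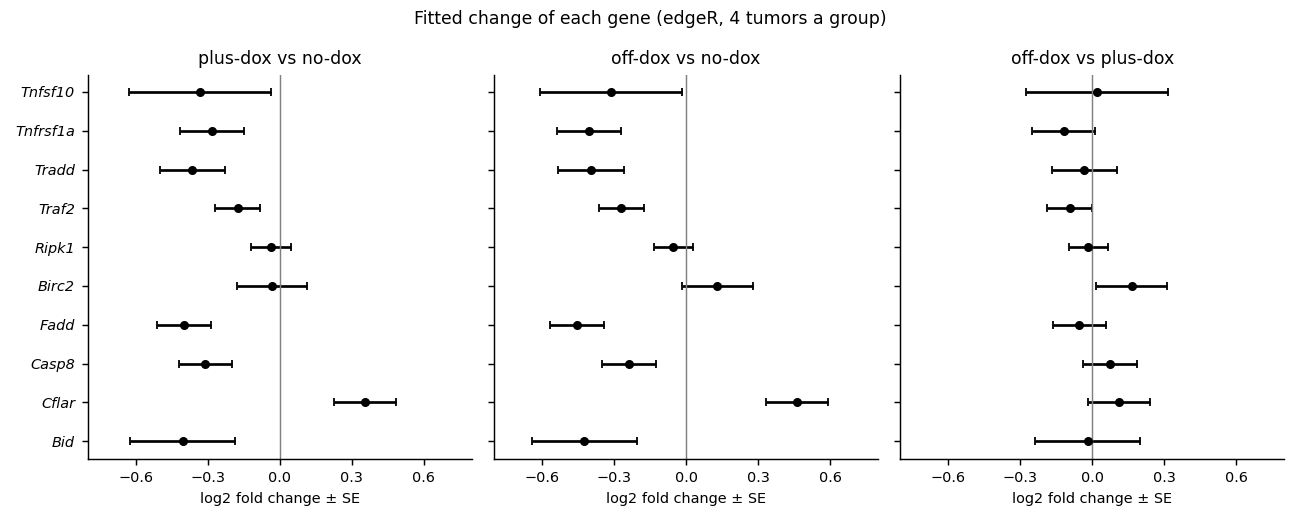
Log2 fold change ± SE (horizontal axes) of each gene from edgeR in the 3 comparisons, 4 tumors a group. Cflar lies to the right of 0 in both comparisons with no-dox tumors, at 0.35 and 0.46, while Fadd lies at −0.40 and −0.45. In off-dox against plus-dox tumors all points lie between −0.12 and 0.16.

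Tnfsf10 encodes TRAIL, a ligand of death receptors (chromosome 3 of mm9, 27215999 to 27238587, plus strand). Its level was 1.89 to 3.58 RPKM in the no-dox, 1.21 to 3.11 in the plus-dox and 1.17 to 2.82 in the off-dox tumors, from 174 to 533 counts. The ranges overlapped widely, and the lowest value of each dox-treated group was in plus-dox tumor 2 and off-dox tumor 4. Relative to no-dox, the log2 fold change was −0.33 ± 0.30 (SE) in plus-dox (edgeR adjusted p = 0.60) and −0.31 ± 0.30 in off-dox tumors (edgeR adjusted p = 0.57). Without those 2 tumors it was −0.15 and −0.12.

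Tnfrsf1a encodes TNFR1, the main receptor for TNF (chromosome 6, 125299741 to 125312501, plus strand). It had 84.7, 86.9, 62.2 and 84.8 RPKM in no-dox tumors, 70.3, 57.5, 64.7 and 67.1 in plus-dox tumors, and 72.7, 56.1, 49.1 and 57.9 in off-dox tumors. No-dox tumor 3 stood below the other no-dox tumors and within the range of both dox-treated groups, so the groups overlapped. The fitted log2 fold change was −0.28 ± 0.13 (SE) in plus-dox (edgeR adjusted p = 0.37) and −0.40 ± 0.13 in off-dox tumors (edgeR adjusted p = 0.14) against no-dox tumors. In bulk tumors, fewer cells of a type and less RNA per cell cannot be told apart. The summed epithelial markers were also lower in all plus-dox than in all no-dox tumors, and overlapped between off-dox and no-dox tumors. That sum includes Krt8, listed with Fadd in a gene set of the study, so its separation is not independent of earlier results. Over the 12 tumors, Tnfrsf1a in log2 CPM correlated with the log2 of that sum at r = 0.86 (0.78 with group means removed). For the other members r ran from −0.77 (Cflar) to 0.72 (Fadd), and from −0.55 (Cflar) to 0.46 (Tnfsf10) with group means removed. With the share of mapped reads on genes, r over all members ran from −0.76 (Cflar) to 0.855 (Tradd). With group means removed it ran from −0.29 (Cflar) to 0.65 (Tradd). The part of these markers and of that share in the levels of Tnfrsf1a and the other members was not tested.

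Tradd encodes the adaptor that binds the death domain of TNFR1 (chromosome 8, 107782475 to 107788494, minus strand). It had 21.2, 21.0, 19.8 and 20 RPKM in no-dox tumors, 17.4, 16.1, 15.1 and 14.7 in plus-dox tumors, and 19.1, 11.6, 13.9 and 16.3 in off-dox tumors. Every no-dox tumor was above every tumor of the other groups, and the off-dox tumors spread most, with off-dox tumor 1 close to the no-dox range. The log2 fold change against no-dox was −0.36 ± 0.14 (SE) in plus-dox (edgeR adjusted p = 0.33) and −0.40 ± 0.14 in off-dox tumors (edgeR adjusted p = 0.15). With each tumor left out in turn the latter ran from −0.51 without off-dox tumor 1 to −0.28 without off-dox tumor 2 (edgeR adjusted p = 0.054 to 0.29). For Tnfrsf1a it ran from −0.51 without off-dox tumor 1 to −0.32 without off-dox tumor 3 (edgeR adjusted p = 0.054 to 0.28).

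Traf2 encodes the adaptor that brings cIAP ligases to TRADD (chromosome 2, 25373502 to 25402414, minus strand). It had 13.8, 14.0, 12.1 and 13.1 RPKM in no-dox tumors, 13.2, 10.3, 11.03 and 12.1 in plus-dox tumors, and 11.8, 10.7, 11.4 and 9.11 in off-dox tumors. The off-dox tumors were all below the no-dox tumors, by a narrow gap, while the plus-dox tumors overlapped both. The log2 fold change against no-dox was −0.18 ± 0.09 (SE) in plus-dox (edgeR adjusted p = 0.42) and −0.27 ± 0.09 in off-dox tumors (edgeR adjusted p = 0.15).

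The levels of Ripk1 and Birc2 overlapped among all groups. Ripk1, the death domain kinase at the branch between NF-kappaB signaling, apoptosis and necroptosis (chromosome 13, 34094743 to 34127039, plus strand), averaged 14.7 ± 1.0 RPKM in the no-dox, 14.3 ± 0.32 in the plus-dox and 13.9 ± 0.49 in the off-dox tumors (SD, n = 4 a group). The log2 fold change of Ripk1 against no-dox was −0.04 ± 0.08 (SE) in plus-dox (edgeR adjusted p = 0.84) and −0.05 ± 0.08 in off-dox tumors (edgeR adjusted p = 0.74). Birc2, which encodes the ubiquitin ligase cIAP1 that modifies RIPK1 (chromosome 9, 7818226 to 7835255, minus strand), had 12.4 ± 1.8, 12.1 ± 2.5 and 13.3 ± 1.7 RPKM (SD, n = 4 a group). For Birc2 the log2 fold change against no-dox was −0.03 ± 0.15 (SE) in plus-dox (edgeR adjusted p = 0.93) and 0.13 ± 0.15 in off-dox tumors (edgeR adjusted p = 0.64). Birc3, its paralog 13445 bases away in the genome, had 11.2 ± 0.88, 11.4 ± 1.2 and 12.0 ± 0.45 RPKM (SD, n = 4 each).

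Within a tumor, the ratio of Birc2 to Ripk1 RPKM was 0.848 ± 0.170 in the no-dox, 0.846 ± 0.181 in the plus-dox and 0.957 ± 0.140 in the off-dox tumors (SD, n = 4 a group), and the ranges overlapped. The mean log2 ratio differed from no-dox by −0.0052 in plus-dox (exact permutation test, two-sided, p = 1, adjusted over 6 ratio tests p = 1) and by 0.19 in off-dox tumors (exact permutation p = 0.31, adjusted p = 0.56). Off-dox and plus-dox tumors differed by 0.19 (exact permutation p = 0.37, adjusted p = 0.56).

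Fadd encodes the adaptor that links death receptors to caspase-8 (chromosome 7, 151764228 to 151768341, minus strand), a gene of 2 exons. It had 6.45, 7.09, 5.45 and 5.60 RPKM in no-dox tumors, 5.25, 4.25, 4.08 and 4.92 in plus-dox tumors, and 4.96, 4.20, 4.54 and 3.87 in off-dox tumors. Both dox-treated groups lay below all no-dox tumors and overlapped each other, and the 2 highest values were in no-dox tumors 1 and 2. The log2 fold change of plus-dox against no-dox tumors was −0.40 ± 0.11 (SE), the contrast in which the lower level was already known. The off-dox comparison shares the no-dox values with that contrast, and its log2 fold change was −0.45 ± 0.11 (edgeR adjusted p = 0.090), a change smaller than the 1.5-fold that a call required. Because the no-dox values that chose Fadd enter this test, its p is not independent of that choice. None of the other 9 members had an edgeR adjusted p under 0.1, against 3.46% of all genes in either direction and 1.38% with a lower level in off-dox tumors. The adjusted p of Fadd was under 0.1 in 6 of 20 other settings and ran from 0.0094 to 0.22, with log2 fold changes between −0.51 and −0.39. With 1 tumor left out it stayed under 0.1 only without plus-dox tumor 1, plus-dox tumor 2 or off-dox tumor 1, and without both plus-dox tumor 2 and off-dox tumor 4 it was 0.099.

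Casp8 encodes the initiator caspase recruited by FADD (chromosome 1, 58852218 to 58904347, plus strand). It had 28.9, 29.0, 31.2 and 29.6 RPKM in no-dox tumors, 23.9, 24.8, 22.7 and 23.7 in plus-dox tumors, and 24.0, 29.7, 20.3 and 24.6 in off-dox tumors. No-dox and plus-dox tumors were each tightly grouped and did not overlap, whereas off-dox tumor 2 lay within the no-dox range. Against no-dox tumors the log2 fold change was −0.31 ± 0.11 (SE) in plus-dox (edgeR adjusted p = 0.33) and −0.24 ± 0.11 in off-dox tumors (edgeR adjusted p = 0.25). The latter was −0.34 without off-dox tumor 2 and −0.15 without off-dox tumor 3.

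Cflar encodes c-FLIP, the caspase-8 inhibitor, and lies on the same strand of chromosome 1 (58770130 to 58815726), 36491 bases upstream of Casp8. It had 13.6, 11.6, 12.4 and 15.3 RPKM in no-dox tumors, 15.4, 18.9, 16.4 and 16.5 in plus-dox tumors, and 15.0, 17.9, 19.4 and 19.2 in off-dox tumors. The plus-dox tumors were above the no-dox tumors by a very narrow gap, set by no-dox tumor 4 and plus-dox tumor 1, and off-dox tumor 1 fell within the no-dox range. Against no-dox tumors the log2 fold change was 0.35 ± 0.13 (SE) in plus-dox (edgeR adjusted p = 0.33) and 0.46 ± 0.13 in off-dox tumors (edgeR adjusted p = 0.102). With each tumor left out in turn the latter adjusted p ran from 0.045, without off-dox tumor 1, to 0.23, without off-dox tumor 2, and it was 0.025 with DESeq2.

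The inhibitor transcript stood higher relative to the caspase transcript in both dox-treated groups. The ratio of Cflar to Casp8 RPKM was 0.470, 0.399, 0.399 and 0.518 in no-dox tumors, 0.646, 0.761, 0.724 and 0.694 in plus-dox tumors, and 0.624, 0.601, 0.957 and 0.780 in off-dox tumors. Every dox-treated tumor was above every no-dox tumor, and the off-dox and plus-dox tumors overlapped. The ratio was 1.59-fold higher in plus-dox than in no-dox tumors, a difference of 0.67 in mean log2 ratio (SDs 0.10 and 0.19, n = 4 each). It was 1.64-fold higher in off-dox than in no-dox tumors, a difference of 0.71 (SDs 0.31 and 0.19, n = 4 each). In both, the exact two-sided permutation test gave p = 0.029, the smallest that the 70 arrangements of 4 against 4 tumors allow, and p = 0.086 adjusted over the 6 ratio tests. Off-dox and plus-dox tumors differed by 0.05 (exact permutation p = 0.8, adjusted p = 0.96).

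**Figure D3:**
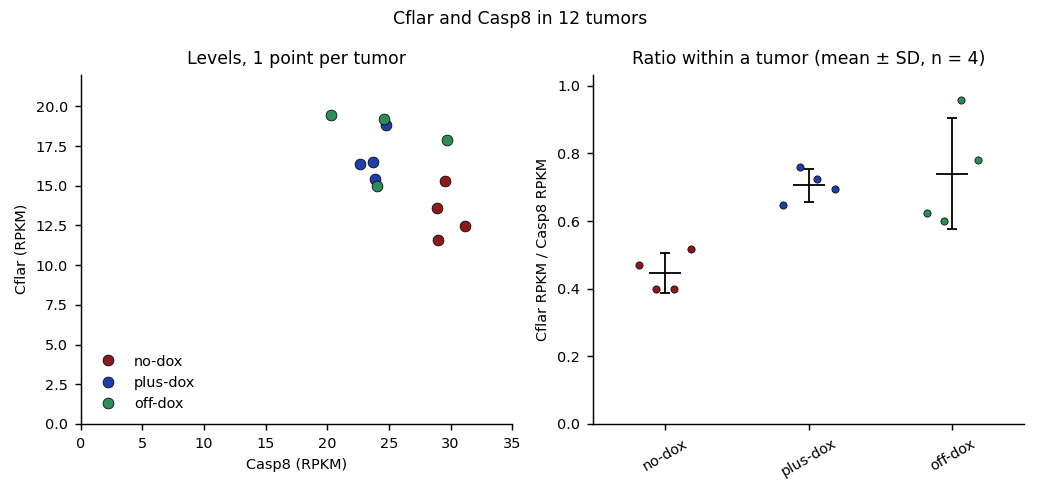
Left, Cflar against Casp8 in RPKM with 1 point per tumor. Right, the ratio of Cflar to Casp8 RPKM in each tumor with the mean ± SD of each group. The no-dox ratios, 0.399 to 0.518, lie below all plus-dox and off-dox ratios, 0.601 to 0.957.

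The length of the transcripts moved with these differences. Medians by length were taken over the tested genes with a mean RPKM over 0.25. The median log2 fold change of plus-dox against no-dox tumors was −0.11 for genes of 1 to 2 kb of exon, 0.16 for 6 to 8 kb and 0.25 above 8 kb. For off-dox tumors the same medians were −0.14, 0.19 and 0.33. Cflar has 7812 bp of exon, the most of the 10 genes, and genes within 20% of its length had medians of 0.19 and 0.23, against 0.35 and 0.46 for Cflar itself. Casp8 has 2777 bp, and genes of like length had medians of −0.04 and −0.06, against −0.31 and −0.24 for Casp8. The shorter Tradd (1385 bp), Bid (1891 bp) and Tnfrsf1a (2155 bp) had like-length medians of −0.13, −0.09 and −0.07 in plus-dox tumors. In off-dox tumors these were −0.15, −0.12 and −0.10. For Ripk1 and Tnfsf10 such medians were positive in both comparisons.

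With the length trend removed, an alternative added after the data were seen, the log2 fold change of Cflar was 0.16 in plus-dox (edgeR adjusted p = 0.58) and 0.23 in off-dox tumors (edgeR adjusted p = 0.36) against no-dox tumors. That of Casp8 was −0.30 and −0.20, and that of Fadd −0.39 and −0.42. The difference in the Cflar to Casp8 ratio was then 0.46 in plus-dox (exact permutation p = 0.029, adjusted p = 0.17) and 0.44 in off-dox tumors (exact permutation p = 0.086, adjusted p = 0.26). The ratio thus stayed higher on average, without passing the threshold of 0.1 after adjustment. Every plus-dox tumor was still above every no-dox tumor. The log2 ratio of off-dox tumor 2, −0.94, then fell within the no-dox range of −1.19 to −0.86, so off-dox and no-dox tumors overlapped.

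**Figure D4:**
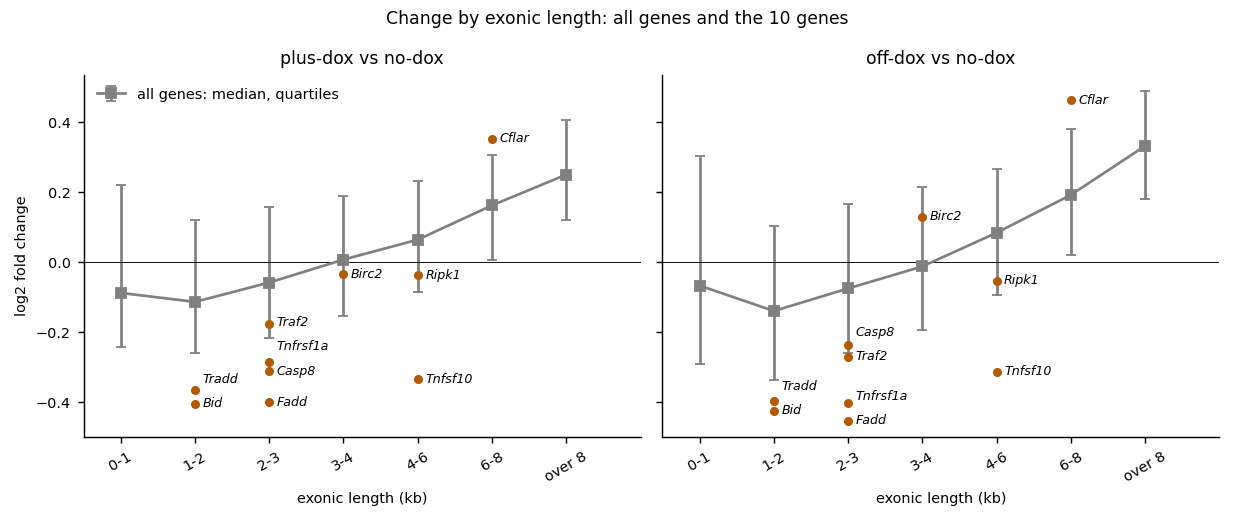
Log2 fold change (vertical axes) against class of exonic length in kb (horizontal axes), for plus-dox and off-dox against no-dox tumors. Grey squares are the median of all genes of a class with a mean RPKM over 0.25, with bars from the lower to the upper quartile. Orange points are the 10 genes. The grey medians rise from −0.11 to 0.25 and from −0.14 to 0.33 between the class of 1 to 2 kb and that above 8 kb. Cflar lies above the upper quartile of its class in both panels.

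Bid encodes the caspase-8 substrate that connects the pathway to mitochondria (chromosome 6, 120843137 to 120866838, minus strand). It had 19.1, 19.9, 17.7 and 14.4 RPKM in no-dox tumors, 16.8, 7.31, 12.0 and 17.5 in plus-dox tumors, and 14.2, 12.4, 10.9 and 14.25 in off-dox tumors. The plus-dox tumors spread widely, from 7.31 RPKM in tumor 2 to 17.5, and overlapped both other groups. The off-dox tumors lay just below the lowest no-dox tumor. Against no-dox tumors the log2 fold change was −0.40 ± 0.22 (SE) in plus-dox (edgeR adjusted p = 0.42) and −0.42 ± 0.22 in off-dox tumors (edgeR adjusted p = 0.29). Without plus-dox tumor 2 and off-dox tumor 4 these were −0.21 (edgeR adjusted p = 0.53) and −0.49 (edgeR adjusted p = 0.094).

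The comparison of off-dox with plus-dox tumors asked whether 3 days without dox moved the pathway away from its level under continued dox. No member had an edgeR adjusted p under 0.1, and 0% of the 17561 genes tested did. At an unadjusted edgeR p under 0.05, 0 members differed, against 3.06% of all genes. The log2 fold changes ran from −0.12 ± 0.13 (SE) for Tnfrsf1a to 0.16 ± 0.15 for Birc2. Those of Fadd, Casp8 and Cflar were −0.05 ± 0.11, 0.07 ± 0.11 and 0.11 ± 0.13. Tested over the 3 groups together, the smallest adjusted p of the 9 members other than Fadd was 0.23, for Cflar, followed by 0.27 for Tradd (edgeR). In that test 0 of all 17561 genes had an adjusted p under 0.1.

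Around the 10 genes, 56 further genes of death receptor and TNF receptor signaling were examined, of which 55 passed the count filter. None of the 55 was called in the 3 comparisons (0 by edgeR). At an unadjusted edgeR p under 0.05, 5 were lower and 0 higher in plus-dox than in no-dox tumors, 5 were lower and 3 higher in off-dox than in no-dox tumors, and 0 differed between off-dox and plus-dox tumors. Those 5 lower genes made up 9.09% of the 55 in either comparison, against 5.67% of all genes in the plus-dox and 9.48% in the off-dox comparison, and the 3 higher genes were 5.45%, against 10.9%. The 0 higher genes in plus-dox tumors stood against 8% of all genes. The 0 that differed between off-dox and plus-dox tumors stood against 3.06%. Of the 55, 29 had a negative and 26 a positive log2 fold change in plus-dox against no-dox tumors (median −0.03), and 24 and 31 in off-dox against no-dox tumors (median 0.02).

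In plus-dox against no-dox tumors, 4 of these genes were lower without overlap (7.27% of the 55, against 3.46% of all genes) and 0 higher (against 4.3%). Dedd2, which encodes a death effector domain protein, had means of 10.0 RPKM in no-dox and 6.98 in plus-dox tumors, a log2 fold change of −0.51. The Fas-associated factor Faf1 averaged 12.7 and 10.8 RPKM (log2 fold change −0.22). Casp6, an executioner caspase, averaged 37.3 and 28.6 RPKM (log2 fold change −0.38). Dffa, which encodes the inhibitor of the caspase-activated DNase, averaged 7.86 and 6.67 RPKM (log2 fold change −0.23). The edgeR adjusted p was 0.33 for each, where the smallest of any gene was 0.32, so these are separations of 4 tumors from 4 and not called changes. Off-dox against no-dox tumors likewise gave 4 without overlap, all lower (7.27%, against 6.4% of all genes), and 0 higher (against 4.99%). The log2 fold change was −0.23 for Faf1 and −0.34 for Casp6 (edgeR adjusted p = 0.17 for each), and −0.31 for Dffa (edgeR adjusted p = 0.11). Diablo, which encodes the IAP antagonist SMAC, averaged 28.0 RPKM without dox and 23.8 after its removal, a log2 fold change of −0.20 (edgeR adjusted p = 0.21). On TMM-scaled log2 CPM, Faf1 and Casp6 overlapped in the latter comparison, and the adaptor Traf3, named after its values were seen, was higher without overlap (log2 fold change 0.31, edgeR adjusted p = 0.18).

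**Figure D5:**
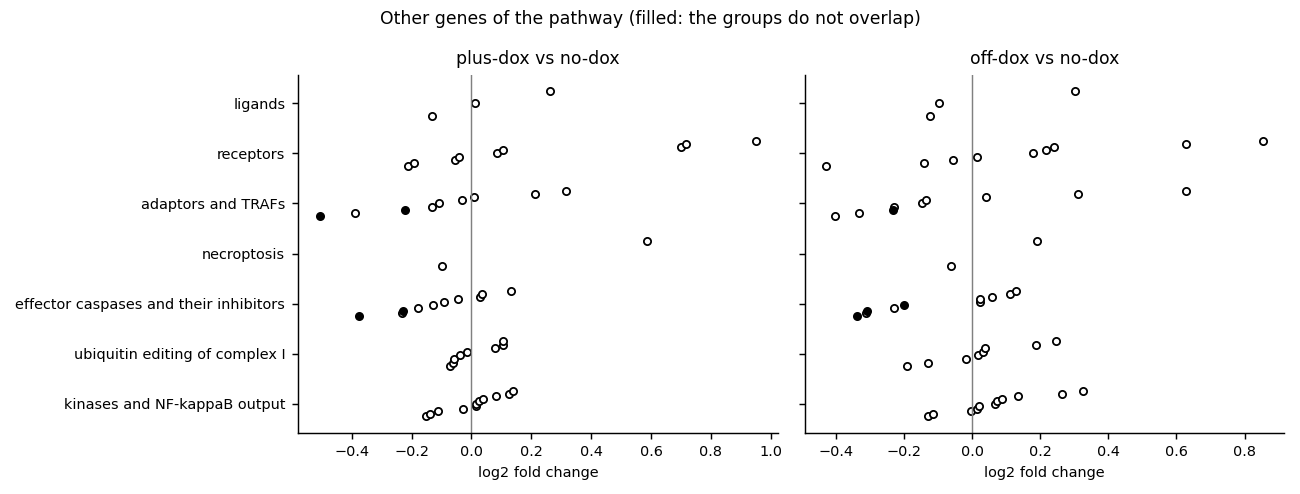
Log2 fold change (horizontal axes) of the 52 other pathway genes with a mean RPKM over 0.25, by role, in plus-dox and off-dox against no-dox tumors. Filled points are the 4 genes in each panel whose groups do not overlap in RPKM, all with negative values, and open points are genes whose groups overlap. The points spread on both sides of 0, from −0.51 to 0.95 and from −0.43 to 0.85.

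For the adaptor Fadd and the ligand Tnfsf10, the least abundant members, the genes with the most similar pattern over the 12 tumors were taken by Pearson's correlation of log2 CPM. For Fadd they were Mccc2 (r = 0.958), Kptn (0.954), Ppp5c (0.952), Myg1 (0.952) and Slc39a11 (0.950), with Spearman's rho of 0.895 to 0.979. Without the tumors farthest from the median, no-dox tumors 1 and 2, r was 0.897 to 0.966. For Tnfsf10 they were Cyp2d10 (r = 0.988), Hr (0.988), Asb13 (0.982), Apobec3 (0.982) and Shisa2 (0.979), with rho of 0.958 to 0.972. Without plus-dox tumor 2 and off-dox tumor 4, r was 0.933 to 0.962. These are the highest values among the genes with a mean RPKM over 0.25, chosen for being high. The tumors share the group differences and library composition, so the correlations are given without a test.

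The promoters of Fadd, Casp8 and Cflar are shown because these genes encode the adaptor, the caspase and the inhibitor whose values are compared above. Each runs from 250 bases before to 50 bases after a transcript start of the RefSeq table (build GRCm38.p6, on the strand of the gene), which need not be the outermost start of the mm9 gene spans given above, and a promoter was found for 9 of the 10 genes, all except Tradd. Capitals mark the GC box, GGGCGG on either strand.
Fadd, chr7:144582392-144582691, minus strand: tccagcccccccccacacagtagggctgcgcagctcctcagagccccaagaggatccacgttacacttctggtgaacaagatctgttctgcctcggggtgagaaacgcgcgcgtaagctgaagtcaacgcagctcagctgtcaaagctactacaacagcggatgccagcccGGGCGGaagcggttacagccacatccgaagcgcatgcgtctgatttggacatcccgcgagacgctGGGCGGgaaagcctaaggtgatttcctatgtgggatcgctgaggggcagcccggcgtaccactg
Casp8, chr1:58802252-58802551, plus strand: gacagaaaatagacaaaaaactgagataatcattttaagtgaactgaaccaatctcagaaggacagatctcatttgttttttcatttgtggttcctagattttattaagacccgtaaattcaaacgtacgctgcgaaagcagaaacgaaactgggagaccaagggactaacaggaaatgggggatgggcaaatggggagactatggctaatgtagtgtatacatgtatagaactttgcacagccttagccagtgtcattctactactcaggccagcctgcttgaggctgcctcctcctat
Cflar, chr1:58711241-58711540, plus strand: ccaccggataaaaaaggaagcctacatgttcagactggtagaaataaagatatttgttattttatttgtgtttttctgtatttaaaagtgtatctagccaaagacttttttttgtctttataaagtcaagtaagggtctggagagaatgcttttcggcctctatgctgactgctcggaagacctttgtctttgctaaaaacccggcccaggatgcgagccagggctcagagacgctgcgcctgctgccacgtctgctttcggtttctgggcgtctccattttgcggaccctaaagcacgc
The Fadd window held 2 GC boxes, 22 CpG and 60.3% G and C. Those of Casp8 and Cflar held 0 GC boxes, with 42% and 45% G and C and 5 and 12 CpG, and the median over 32851 mouse promoters was 52.7% G and C. A GC box was present in 35.7% of all promoters of this length. Of the other members, Traf2 had 1, Bid 3, Ripk1 3 and 4 at its alternative starts, Birc2 0 and 2, and Tnfsf10 and Tnfrsf1a 0. The NF-kappaB consensus, found on either strand in 8.46% of all promoters, matched 0 member windows, and the p53 half-site consensus, found in 8.36%, matched only the second Birc2 window. These matches describe letters in the windows only.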

How the data were processed

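PolyA-selected RNA from 12 tumors was sequenced as libraries that do not mark strand. The authors aligned reads to mm9 (submitters' processing notes name CASAVA 1.8.2, Bowtie 0.12.8, TopHat 1.4.1 and bedtools 2.16.2) and counted them on merged RefSeq exons. The deposited expected counts are the authors' base-wise coverage expressed as reads, unnormalized and partly fractional. The deposited RPKM values are normalized by the authors to exonic length and to all mapped reads. Handling of duplicate reads and multiple mapping is not given in the sources used here.

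Counts were rounded and tested with edgeR 4.0.16 (R 4.3.3; TMM, quasi-likelihood, all 3 groups in 1 fit, no covariates, genes with at least 10 counts in total). P-values were adjusted by the Benjamini-Hochberg method across the 17561 genes tested. Log2 CPM used a prior count of 2. Ratios of RPKM within a tumor were compared by exact two-sided permutation tests over all arrangements, in Python 3.11.15 with numpy 2.4.6. Spearman's rho was computed with scipy 1.17.1. Alternatives were DESeq2 1.42.0 with moderated fold changes, RLE normalization, no count filter, the 8 tumors of a pair alone, a replicate block, each tumor left out, plus-dox tumor 2 and off-dox tumor 4 left out, and, for ratios, 1 RPKM added. Removal of trends with exonic length and GC content (GC known for 92.8% of genes and 10 of 10 members) was added after seeing the data. Of these steps, only the edgeR fit was tested on simulated counts, in off-dox against no-dox tumors.

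Members, the 56 other pathway genes and the marker lists were chosen with earlier results of these data known. All members are named. Other pathway genes are named where called or, up to 5 in each comparison, by the largest change among those with mean RPKM over 0.25 whose groups do not overlap. The 5 genes most correlated with Fadd and with Tnfsf10 are named. Tumor numbers did not pair tumors. No replicate pair agreed within sampling noise. Part of the genotype of the line is not reported here.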

Additional observations from a re-analysis of the deposited data

Results flagged for a closer look

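The RPKM of the 10 genes and the ratios of Cflar to Casp8 and of Birc2 to Ripk1 were examined for a tumor standing apart from the others of its group, 36 groups of 4 in all, of which chance marks about 1 in 20. One value was marked. The Tnfrsf1a level of no-dox tumor 3, 62.2 RPKM, was the lowest of its group, and its gap to the nearest tumor took up 0.908 of the range of the group, above Dixon's critical value for 4 tumors. Without this tumor the log2 fold change of Tnfrsf1a against no-dox was −0.37 in plus-dox (edgeR adjusted p = 0.41) and −0.49 in off-dox tumors (edgeR adjusted p = 0.17).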

How the results depend on the processing

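No member was called under any setting. The number of all genes called in off-dox against no-dox tumors, 235, was 400 with DESeq2, 122 without a count filter, 3 with the 8 tumors of the pair alone, 471 without plus-dox tumor 2 and off-dox tumor 4, 43 with the length trend removed and 78 with length and GC trends removed. With each tumor left out it ran from 0 to 789, with 789 without off-dox tumor 1, 19 without plus-dox tumor 3, 1 without no-dox tumor 3 and 0 when any of tumors 1, 2 and 4 of the no-dox group, tumor 4 of the plus-dox group or tumors 2, 3 and 4 of the off-dox group was removed. In plus-dox against no-dox tumors the count of 0 became 91 with DESeq2 and 3 without plus-dox tumor 1. In off-dox against plus-dox tumors the count of 0 became 2 with DESeq2 and 1 without off-dox tumor 1. The cause was not tested. With the replicate block 0 genes were called in off-dox against no-dox tumors, and the adjusted p of Fadd was 0.14. The numbers gave no pairing, since same-numbered tumors correlated at −0.088 on average (12 pairs) and 0 of 12 tumors correlated best with their own number.

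The Cflar to Casp8 difference against no-dox fell to 0.46 and 0.44 with the length trend removed and to 0.47 and 0.43 with length and GC trends removed (adjusted p = 0.17 and 0.26 in each, exact permutation tests). Between off-dox and plus-dox tumors it became −0.020 and −0.035, and −0.086 to 0.14 with a tumor left out. The Birc2 to Ripk1 difference of plus-dox against no-dox tumors became 0.13 without the 2 tumors named, 0.053 and 0.069 with the trends removed, and −0.13 to 0.13 with a tumor left out. Log2 fold changes near 0 also changed sign. In plus-dox against no-dox tumors Birc2 was 0.065 without the 2 tumors named, 0.016 with length and GC trends removed and −0.15 to 0.069 with a tumor left out, and Ripk1 −0.069 to 0.020. In off-dox against no-dox tumors Ripk1 was −0.086 to 0.0065. In off-dox against plus-dox tumors, Bid was 0.0084 with the block, 0.020 and 0.036 with the trends removed and −0.22 to 0.12 with a tumor left out. There Tradd was 0.0021 and 0.042 with the trends removed and −0.15 to 0.080, Tnfsf10 −0.032 with length and GC trends removed and −0.17 to 0.24, Casp8 −0.025 to 0.16 and Ripk1 −0.050 to 0.011.

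In off-dox against no-dox tumors the adjusted p of Tnfrsf1a, Tradd and Traf2 was 0.069, 0.087 and 0.081 with DESeq2. Each member had at least 174 counts in every tumor.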
